A study of Mus musculus with 12 samples.

Results

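The miR-25/92 family was followed through 3 mouse androgenetic haploid embryonic stem cell (ESC) lines, a diploid ESC line and round spermatids. Its 9 members were taken by name from a table of 1549 miRNA features: the guide arms mmu-miR-92a-3p, mmu-miR-92b-3p, mmu-miR-25-3p, mmu-miR-363-3p and mmu-miR-32-5p, and the passenger arms mmu-miR-25-5p, mmu-miR-92a-1-5p, mmu-miR-92a-2-5p and mmu-miR-363-5p. All 9 were found, and the prefix mmu for mouse is left out from here on. Androgenetic haploid ESC carry 1 chromosome set, of paternal origin. The lines were A129-17 (2 libraries), A129-6 (3 libraries) and A129-2 (2 libraries), set against diploid R1 ESC (2 libraries) and round spermatids, RS, the haploid cells formed by meiosis (3 libraries). All groups were labelled wild type and had been collected by cell sorting, the spermatids from testes of male 129Sv mice. The haploid lines had been cultured with LIF and inhibitors and re-sorted for haploid cells at intervals of weeks. No age, passage or batch was stated. Samples of a group were sorted independently, but nothing says that they came from separate cultures or animals, so p-values measure only the spread between sorted samples, and that spread may be technical. With R1 as the only diploid line, a difference from R1 cannot be told apart from a difference from diploid ESC in general.

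A miRNA is cut from a hairpin whose arms pair with each other. Usually the guide arm is kept in an Argonaute protein and the passenger arm is degraded, so that the ratio of the arms in a library is a readout separate from the level of the hairpin. Guide arms find target mRNAs mainly by their seed, and those of the miR-25/92 family share a seed, so they are expected to overlap in their targets, among which Bcl2l11 (Bim) and Fbxw7 have been reported. The hairpins of miR-25, miR-92a and miR-363 lie in polycistronic clusters together with miR-17, miR-18, miR-19 and miR-106 relatives, which are well known in growth control and are active in ESC.

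The mature sequences are shown because the family is defined by its seed and because the sequences differ in base composition, to which the results return. Sequences and positions are from RefSeq on mouse build GRCm38.p6, 5′ to 3′, with bases 2 to 8 (the seed) in capitals. RefSeq gave a sequence for 8 of the 9 members, miR-363-5p being named only.
miR-92a-3p: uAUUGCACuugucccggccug
miR-92b-3p: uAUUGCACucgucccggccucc
miR-25-3p: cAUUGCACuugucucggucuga
miR-363-3p: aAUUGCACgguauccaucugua
miR-32-5p: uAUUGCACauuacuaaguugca
miR-25-5p: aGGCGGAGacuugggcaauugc
miR-92a-1-5p: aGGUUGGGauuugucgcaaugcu
miR-92a-2-5p: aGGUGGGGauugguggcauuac

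The 5 guide arms carried the same seed, AUUGCAC, which among the table's names with a RefSeq sequence was otherwise found in miR-367-3p alone. Aligned from the 5′ end without gaps, miR-92a-3p and miR-92b-3p were identical at 19 of 21 positions, and miR-92a-3p and miR-25-3p at 18 of 21. The passenger arms with a RefSeq sequence did not carry the family seed. Those of the 2 miR-92a hairpins were identical at 17 of 22 positions. Since the sources used here do not give how reads with several matches were counted, reads of such close relatives may stand under the wrong name.

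The hairpins behind the arm ratios are shown with both mature arms in capitals, the 5p arm first.
Mir25: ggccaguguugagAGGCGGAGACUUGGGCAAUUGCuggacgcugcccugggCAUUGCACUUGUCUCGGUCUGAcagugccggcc
Mir92-1: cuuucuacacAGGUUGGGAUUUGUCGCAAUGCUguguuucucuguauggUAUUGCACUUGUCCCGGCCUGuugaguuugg
Mir92-2: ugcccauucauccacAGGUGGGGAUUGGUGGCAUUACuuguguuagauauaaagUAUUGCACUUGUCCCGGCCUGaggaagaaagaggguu

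Mir25 (chr5:138165321-138165404, minus strand) lies within the protein-coding gene Mcm7 on the same strand and overlaps an exon of an annotated transcript. Mir92-1 (chr14:115044427-115044506, plus strand) lies in an exon of the noncoding host gene Mir17hg. Mir92-2 (chrX:52741838-52741928, minus strand) and Mir363 (chrX:52741693-52741767, minus strand) are X-linked neighbours and overlap no other annotated gene, as is also the case for Mir92b (chr3:89227116-89227198, minus strand). Mir32 (chr4:56895229-56895298, minus strand) lies in an intron of Tmem245 on the same strand. Both miR-92a hairpins give the same 3p arm, so reads of miR-92a-3p cannot be assigned to a locus, whereas the 5p arms differ and can.

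Counted reads numbered 3709786 to 9102467 in the haploid libraries, 7632174 and 9176080 in R1 and 155232 to 243714 in RS. The ESC miRNAs used as markers were 9 of the miR-290 and miR-302 clusters. All were detected in the haploid lines and R1, and 8 in RS, where miR-302a-3p had no count. They summed to 7.69% to 14.0% of counts in the haploid lines, 19.3% to 19.4% in R1 and 0.00574% to 0.258% in RS. The 4 spermatid markers of the miR-34 and miR-449 families summed to 0.0052% to 0.0306% in the haploid lines, 0.0247% to 0.0269% in R1 and 7.99% to 29.4% in RS. Mesenchymal markers (5 of 5 detected) took 0.586% to 2.68%, 1.34% to 1.53% and 1.40% to 6.63% in the haploid lines, R1 and RS, and blood and endothelial markers (6 of 6) 0.0357% to 0.086%, 0.0443% to 0.049% and 0.138% to 1.34%. No 2 replicates agreed within sampling noise. A129-6 replicate 3 stood furthest from its group. Without it, all 9 members kept their direction and call against R1, and the results between lines are also given without it.

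Within the family, the haploid lines were dominated by miR-92a-3p and R1 by miR-25-3p. The make-up is given as each arm's share of the counts of the 5 guide arms in the same library, which needs no scaling between libraries. miR-92a-3p took 74.4% ± 3.11 in line A129-17, 73.0% ± 1.46 in line A129-6 and 74.8% ± 1.77 in line A129-2, against 36.9% ± 0.99 in R1 and 50.0% ± 9.68 in RS (SD, n = 2, 3, 2, 2 and 3 libraries in that order, as in the sentences below). miR-25-3p took 8.46% ± 0.318, 10.2% ± 2.10 and 13.1% ± 0.141 in the same lines, against 50.3% ± 1.27 in R1 and 48.0% ± 9.57 in RS. For neither arm did any haploid library overlap with R1 or RS.

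The remaining guides were minor. miR-92b-3p held 9.98% to 18.4% of guide counts in haploid libraries, 4.36% and 4.63% in R1 and 0.693% to 1.54% in RS. miR-363-3p held 0.854% to 1.43%, against 6.97% and 7.43% in R1 and 0.288% to 1.19% in RS. miR-32-5p was at most 0.0193% in a haploid library, against 0.993% and 1.16% in R1 and 0.0834% to 0.224% in RS. Thus miR-363-3p and miR-32-5p were larger fractions of the family in R1 than in any other library, and miR-92b-3p in the haploid lines. The 9 members together made up 1.24% and 1.77% of all counts in A129-17, 1.66%, 1.92% and 1.03% in line A129-6, 2.34% and 1.61% in line A129-2, 0.742% and 0.844% in R1, and 1.28%, 2.33% and 2.16% in RS.

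**Figure D1:**
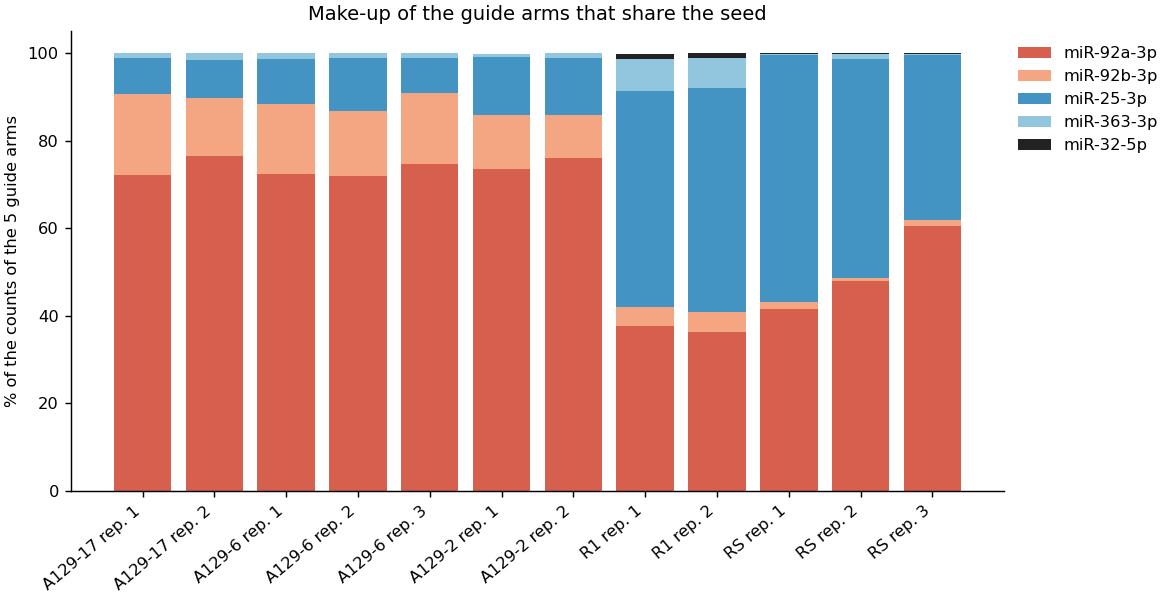
Share of each of the 5 guide arms (% of their summed counts, y axis from 0) in each of the 12 libraries (x axis), as stacked bars. miR-92a-3p fills 72.0% to 76.6% of the bar in haploid libraries, against 36.2% and 37.6% in R1, where miR-25-3p takes 49.4% and 51.2%.

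Against R1, the haploid lines had more miR-92a-3p and miR-92b-3p and less miR-25-3p, miR-363-3p and miR-32-5p. Levels among ESC are given as normalised CPM, counts relative to a library size scaled by TMM over the ESC libraries, and changes as log2 fold change with their standard error (SE). A change is called where edgeR's quasi-likelihood test gave a Benjamini-Hochberg adjusted p below 0.05. All 9 members were called between the mean of the haploid lines and R1, 5 higher and 4 lower. Because 70.5% of the 757 features tested were called in this comparison, with 35.3% higher and 35.3% lower, the call on its own does not set the members apart. The median change over all features was 0.33, and that over the members 0.94.

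miR-92a-3p, the family's most abundant arm in the haploid lines, had 11557 and 14425 normalised CPM in A129-17, 10653, 11502 and 10833 in line A129-6 and 12320 and 12639 in line A129-2, against 2558 and 2685 in R1. Every haploid library lay well above both R1 libraries, and A129-6 was the lowest of the lines. The log2 fold change was 2.21 (SE 0.25, adjusted p = 1.16e-06), a 4.63-fold higher level.

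miR-92b-3p, made from its own hairpin outside the clusters, had 2942 and 2509 normalised CPM in A129-17, 2339, 2365 and 2358 in line A129-6 and 2086 and 1660 in line A129-2, against 296 and 343 in R1. No haploid library came near R1. Its log2 fold change of 2.84 (SE 0.26, adjusted p = 1.47e-07) was the largest rise in the family. The other arm of the same hairpin, miR-92b-5p, moved with it: 337 and 187 normalised CPM in A129-17, 125, 122 and 278 in line A129-6 and 98.4 and 96.3 in line A129-2, against 28.7 and 26.4 in R1 (log2 fold change 2.58, SE 0.40, adjusted p = 3.57e-05).

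miR-25-3p had 1317 and 1635 normalised CPM in A129-17, 1546, 1930 and 1152 in line A129-6 and 2211 and 2164 in line A129-2, against 3359 and 3793 in R1. All haploid libraries were below R1, those of A129-2 the least so. The log2 fold change was -1.07 (SE 0.22, adjusted p = 0.000577). When all 12 libraries were fitted and scaled together, the change was -0.22 with an adjusted p of 0.624, while the median change of all features moved to 0.94.

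miR-363-3p had 196 and 269 normalised CPM in A129-17, 174, 176 and 156 in line A129-6 and 143 and 172.3 in line A129-2, against 505 and 517 in R1 (log2 fold change -1.48, SE 0.21, adjusted p = 1.84e-05). The A129-17 libraries were the highest of the lines, and all haploid libraries lay under R1. The fit of all 12 libraries gave -0.62 with an adjusted p of 0.155.

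miR-32-5p was nearly absent from the haploid lines. Its raw counts were 2 and 7 in line A129-17, 5, 23 and 7 in line A129-6 and 0 and 3 in line A129-2, against 633 and 747 in R1. The log2 fold change was -6.76 (SE 0.48, adjusted p = 9.58e-09), the largest decrease in the family, and -8.01 without A129-2 replicate 2. In A129-2, the 3 counts against 1380 in R1 gave a ratio of 0.00286 of the R1 level (95% Poisson interval 0.000589 to 0.00837, after scaling, counting error only). The count of 0 in line A129-2 replicate 1 allows up to 0.809 CPM.

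miR-32-3p, the opposite arm, also fell, though by less: 5.17 and 8.94 normalised CPM in A129-17, 4.84, 9.38 and 7.25 in line A129-6 and 8.59 and 8.71 in line A129-2, against 48.0 and 38.0 in R1 (log2 fold change -2.50, SE 0.33, adjusted p = 6.27e-06). There were 0.0741 and 0.152 reads of the 5p arm per read of the 3p arm in A129-17, 0.128, 0.329 and 0.189 in line A129-6 and 0 and 0.0395 in line A129-2, against 1.64 and 1.94 in R1. The 3p arm was thus the more abundant arm of Mir32 in each haploid library and the less abundant in each R1 library. This ratio was chosen after its values were seen and was not tested.

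**Figure D2:**
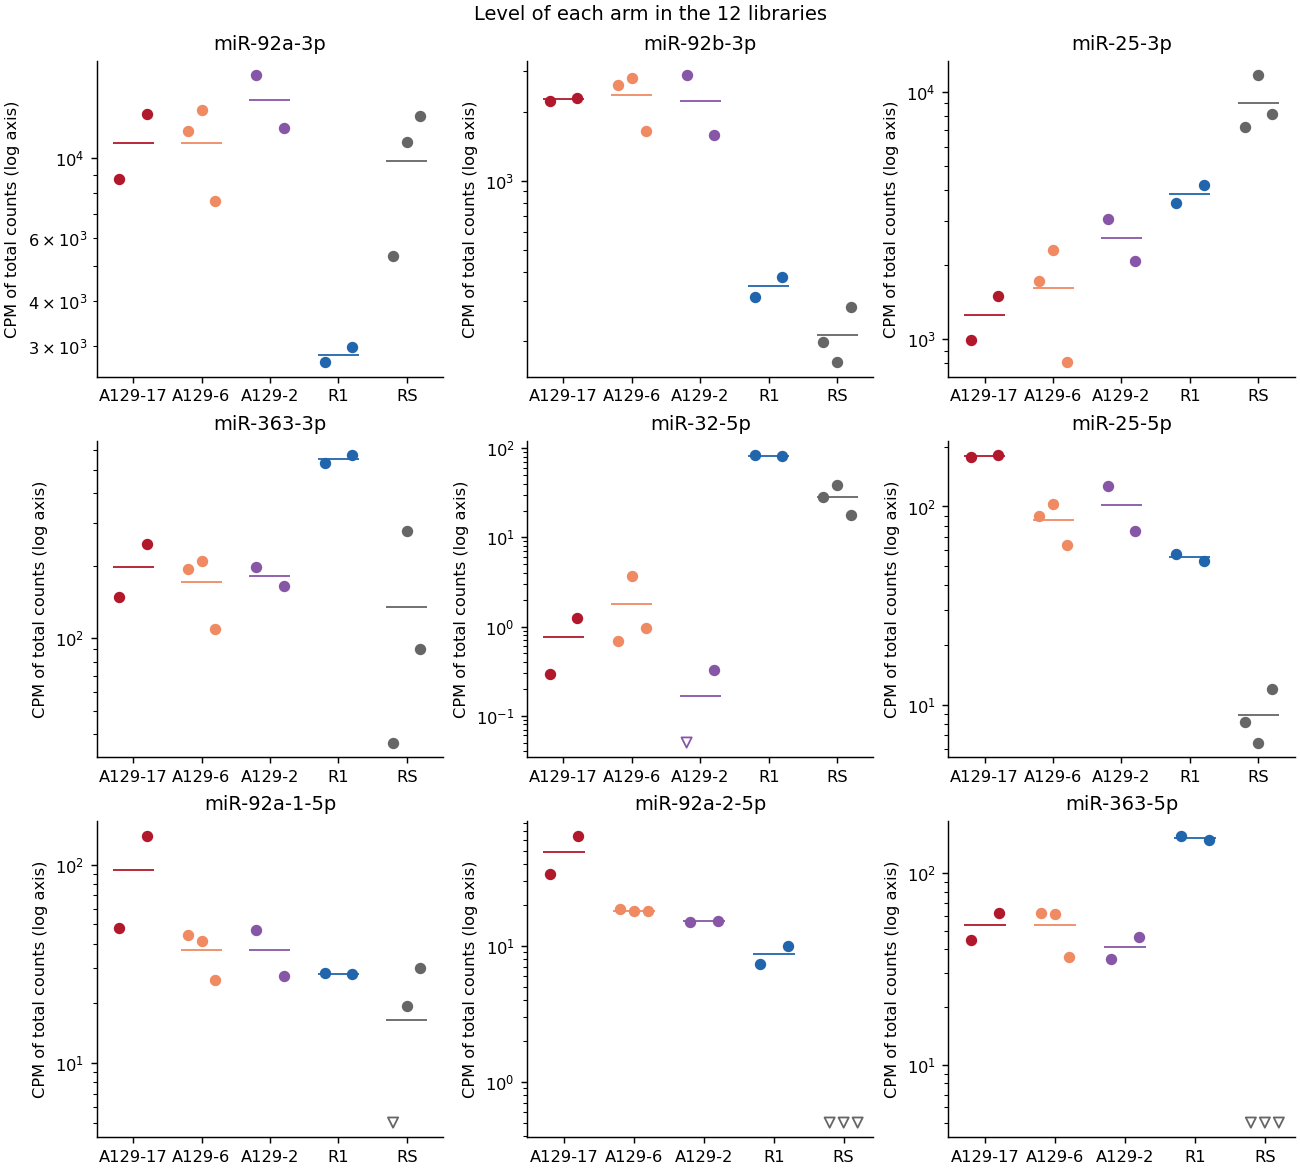
Level of each of the 9 members in CPM of all counts of a library (log y axis), by group; points are libraries, bars the arithmetic mean of a group and open triangles libraries at 0, drawn at the foot of the axis. miR-92a-3p and miR-92b-3p are higher in every haploid library than in R1, and miR-363-3p, miR-363-5p and miR-32-5p lower.

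The passenger arms split in the same comparison. miR-25-5p had 236 and 197 normalised CPM in A129-17, 79.8, 86.7 and 90.9 in line A129-6 and 92.4 and 78.5 in line A129-2, against 54.7 and 48.2 in R1. It was higher in all haploid libraries (log2 fold change 1.18, SE 0.27, adjusted p = 0.00109), in the opposite direction to its guide arm. Without R1 replicate 2 the adjusted p was 0.0545.

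miR-92a-2-5p had 44.4 and 70.9 normalised CPM in A129-17, 16.6, 15.1 and 25.9 in line A129-6 and 10.9 and 15.9 in line A129-2, against 6.96 and 9.06 in R1 (log2 fold change 1.62, SE 0.39, adjusted p = 0.00182). Every haploid library was above R1. It kept this call in each alternative fit.

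miR-92a-1-5p had 63.6 and 153 normalised CPM in A129-17, 39.8, 34.6 and 37.2 in line A129-6 and 33.8 and 28.7 in line A129-2, against 26.8 and 25.4 in R1. Outside A129-17 the levels stood only slightly above R1. The log2 fold change of 0.94 (SE 0.35, adjusted p = 0.0254) rested on few libraries, the adjusted p being 0.0822 without A129-17 replicate 2, 0.134 without R1 replicate 1 and 0.171 without R1 replicate 2. It also depended on the processing and missed the threshold with RLE scaling (0.0859), total-count scaling (0.121), no filter (0.0658), DESeq2 (0.0627) and the counts of each line summed (0.0734).

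miR-363-5p fell together with its guide arm. It had 59.2 and 67.4 normalised CPM in A129-17, 55.8, 51.7 and 52.1 in line A129-6 and 26.0 and 48.3 in line A129-2, against 149 and 135 in R1 (log2 fold change -1.50, SE 0.26, adjusted p = 1.19e-04). Haploid and R1 libraries did not overlap. In the fit of all 12 libraries the change was -0.64 with an adjusted p of 0.108.

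Line by line, A129-17 had all 9 members called against R1, 5 higher and 4 lower, where 66.2% of all features were called (34.6% higher, 31.6% lower). A129-6 had 8 called, 4 higher and 4 lower, where 67.1% were called (35% higher, 32.1% lower). A129-2 had 6 called, 2 higher and 4 lower, where 59.8% were called (31% higher, 28.8% lower). The 3 comparisons share the R1 libraries. miR-92a-3p and miR-92b-3p were called higher and miR-25-3p, miR-363-3p, miR-363-5p and miR-32-5p lower in each line, miR-25-3p in A129-2 just past the threshold (log2 fold change -0.71, SE 0.29, adjusted p = 0.0489). Not called were miR-92a-1-5p in A129-6 (0.51, SE 0.38, adjusted p = 0.248) and, in A129-2, miR-92a-1-5p (0.26, SE 0.41, adjusted p = 0.610), miR-92a-2-5p (0.75, SE 0.44, adjusted p = 0.152) and miR-25-5p (0.73, SE 0.31, adjusted p = 0.0520). The change of miR-25-5p was of the same size in A129-6 (0.74, called). Some of these calls rested on single libraries. That of miR-25-3p in A129-2 was lost without either A129-2 library (adjusted p = 0.115 and 0.0799), A129-6 replicate 1 (0.0882) or either R1 library (0.132 and 0.24). In A129-6, miR-25-5p was not called without A129-17 replicate 1 (0.0507), R1 replicate 1 (0.161) or R1 replicate 2 (0.272), and miR-92a-2-5p not without R1 replicate 1 (0.153) or R1 replicate 2 (0.061). In A129-17, miR-363-5p was not called without A129-17 replicate 1 (0.06) or R1 replicate 1 (0.0748).

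**Figure D3:**
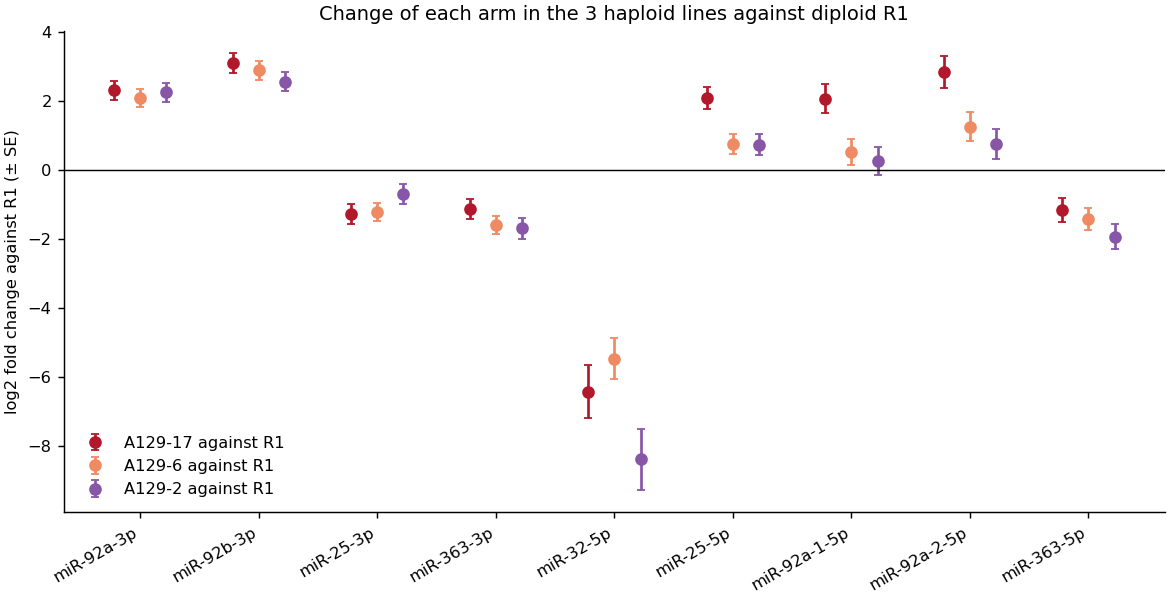
Log2 fold change of each member in A129-17, A129-6 and A129-2 against R1 (y axis), with bars of 1 SE of the fit. No guide arm passed the test between lines, whereas miR-25-5p, miR-92a-1-5p and miR-92a-2-5p lie higher in A129-17 than in the other lines.

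The changes of the guide arms against R1 ran in the order of their base composition. GC content was 63.6% in miR-92b-3p, 57.1% in miR-92a-3p, 50.0% in miR-25-3p, 40.9% in miR-363-3p and 31.8% in miR-32-5p, and their log2 fold changes were 2.84, 2.21, -1.07, -1.48 and -6.76. The same trend ran through the whole table. The 609 tested features with a RefSeq sequence had a median log2 fold change of -3.05 below 35% GC (n = 38), -2.45 from 35% to 45% (n = 140), -0.22 from 45% to 55% (n = 242), 1.75 from 55% to 65% (n = 128) and 1.87 above (n = 61).

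After a correction of each library for GC content, miR-32-5p was still lower (log2 fold change -4.14, SE 0.48, adjusted p = 5.45e-06), as was miR-25-3p (-0.89, SE 0.21, adjusted p = 0.00192). miR-92b-3p (1.24, SE 0.20, adjusted p = 0.000111) and miR-92a-3p (1.13, SE 0.21, adjusted p = 0.000361) were still higher, by smaller amounts. miR-363-3p, at 0.01 (SE 0.21, adjusted p = 0.968), and miR-25-5p, at -0.09 (SE 0.22, adjusted p = 0.738), were no longer called, while miR-92a-1-5p was at 1.50 (SE 0.35, adjusted p = 0.00223) and miR-92a-2-5p at 0.90 (SE 0.37, adjusted p = 0.0433). The correction removes any difference that follows GC content, whatever its source, and the source of the trend was not tested.

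**Figure D4:**
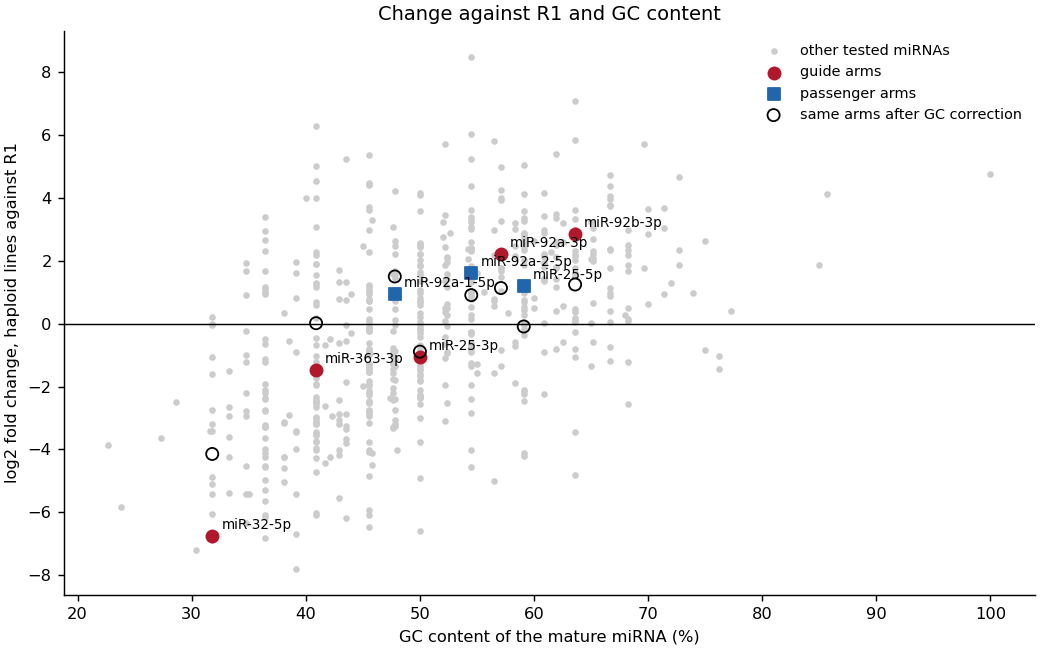
Log2 fold change of the haploid lines against R1 (y axis) by GC content of the mature miRNA (x axis, %), for the 609 tested features with a sequence. Filled symbols are the family's guide and passenger arms, whose guides run from -6.76 at 31.8% to 2.84 at 63.6%, and open circles the same arms after GC correction.

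Among the haploid lines, 3 passenger arms differed, and no guide arm passed the test. An F-test over the 3 lines called 29 of the 757 features (3.83%), and 3 of the 9 members were among them: miR-25-5p, miR-92a-2-5p and miR-92a-1-5p, each with an adjusted p of 0.0394 and at ranks 2, 5 and 7 of all features. The adjusted p of the other members ran between 0.147 for miR-32-5p and 0.748 for miR-92a-3p. The 3 arms were higher in A129-17 than in both other lines, as were 9 of the 29 called features in all. With miR-25-5p, the log2 difference was 1.33 (SE 0.28) against A129-6 and 1.34 (SE 0.31) against A129-2. With miR-92a-1-5p it was 1.54 (SE 0.37) and 1.80 (SE 0.42), but 0.75 and 1.03 without A129-17 replicate 2, and with miR-92a-2-5p 1.59 (SE 0.39) and 2.09 (SE 0.45).

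Without TMM scaling, too, no library of the other lines reached those of A129-17. In CPM of all counts of a library, miR-25-5p was at 179 and 181 in line A129-17, 89.1, 103 and 63.7 in line A129-6 and 127.5 and 75.3 in line A129-2. miR-92a-2-5p was at 33.7 and 65.1 in line A129-17, 18.6, 18.0 and 18.1 in line A129-6 and 15.1 and 15.3 in line A129-2. miR-92a-1-5p was at 48.2 and 140 in line A129-17, 44.4, 41.0 and 26.1 in line A129-6 and 46.6 and 27.5 in line A129-2, so that the lower A129-17 library barely cleared the highest of the others.

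Pair by pair, no member passed the threshold. Against A129-2 the adjusted p in A129-17 was 0.0523 for each of the 3 arms, and against A129-6 it was 0.0576 for miR-25-5p and 0.0795 for the miR-92a passengers. In these pairs edgeR called 0 features in all (0%), with 181 and 123 features, 4 and 3 of them members, at an unadjusted p below 0.05. DESeq2 called 62 and 23 features, 3 members in each pair. A129-6 against A129-2 gave 0 members among 18 called features (2.38%, with 1.85% higher and 0.528% lower), with 1 member at an unadjusted p below 0.05 and 1 called by DESeq2.

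The differences between lines depended on the libraries included and on the processing. None of the 3 arms was called without A129-6 replicate 1 (adjusted p = 0.0781 each), without A129-6 replicate 2 (0.0834 each) or with scaling by total counts (0.112 to 0.260). Without A129-6 replicate 3 all 3 were called, with an adjusted p of 0.00824 for miR-25-5p and miR-92a-2-5p and 0.0177 for miR-92a-1-5p. Neither miR-92a passenger was called without A129-2 replicate 1 (0.0709 each), without A129-2 replicate 2 (0.0677 for miR-92a-1-5p and 0.0579 for miR-92a-2-5p), without A129-17 replicate 2 (0.291 and 0.118) or with the stricter filter (0.0561 and 0.053). miR-25-5p was not called without A129-17 replicate 1 (0.0651). After GC correction all 3 arms were called (0.0415 each). The ESC markers summed to 8.14% to 9.85% of counts in A129-17, 7.69% to 14.0% in line A129-6 and 12.1% to 12.5% in line A129-2, and their part in the difference was not tested.

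Arm ratios are taken within a library and need no scaling between libraries, but arms of unequal GC content still carry the trend described above. The permutation tests against R1 and RS treat the 7 haploid libraries as exchangeable, although they come from 3 lines. Their p-values therefore do not allow for likeness within a line. For miR-25 there were 5.59 and 8.31 reads of the 3p arm per read of the 5p arm in A129-17, 19.4, 22.3 and 12.7 in line A129-6 and 23.9 and 27.6 in line A129-2, against 61.4 and 78.8 in R1. The ratio was lower in each haploid library than in R1 and lowest in A129-17. The mean log2 ratio of the haploid libraries was 2.22 below that of R1 (exact permutation test over libraries, two-sided, p = 0.0278, the smallest that 7 against 2 libraries allow; 0.0556 after Benjamini-Hochberg adjustment over the 12 ratio tests). Most of this difference was lost after GC correction, which left the log2 fold change of miR-25-3p at -0.89 and that of miR-25-5p at -0.093, against -1.07 and 1.18 before it. Between the 3 lines the ratio differed (exact permutation test, p = 0.0190, adjusted 0.0457), with a log2 difference of 1.91 between A129-2 and A129-17.

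For miR-92a, whose 3p arm was set against the sum of both 5p arms, the ratio was 107 and 64.4 in line A129-17, 189, 231 and 171.7 in line A129-6 and 276 and 283 in line A129-2, against 75.7 and 77.9 in R1. The A129-17 libraries fell on either side of R1, and the libraries of the other lines lay above it. Haploid and R1 libraries did not differ past the threshold (log2 difference 1.14, exact permutation p = 0.111, adjusted 0.167). The lines differed (exact permutation p = 0.0190, adjusted 0.0457), by 1.75 on the log2 scale between A129-2 and A129-17. For miR-25 and miR-92a alike, the difference between lines missed the threshold after leaving out any of the 7 haploid libraries, which also leaves fewer possible arrangements. miR-92a-3p counts come from both hairpins, so the ratio holds for neither hairpin alone.

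For miR-363 no difference in the arm ratio among ESC passed the test. The ratio was 3.31 and 3.98 in line A129-17, 3.11, 3.40 and 3.00 in line A129-6 and 5.51 and 3.57 in line A129-2, against 3.38 and 3.82 in R1 (log2 difference 0.01, exact permutation p = 0.944, adjusted 0.944; between lines adjusted 0.183). The ratio of the miR-92a passengers, 92a-1-5p over 92a-2-5p, ran between 1.43 and 3.09 in haploid libraries, against 3.86 and 2.80 in R1 (log2 difference -0.70, exact permutation p = 0.0833, adjusted 0.143; between lines adjusted 0.634). For miR-92b, 8.48 to 21.2 reads of the 3p arm per 5p read in the haploid lines spanned the values of 10.3 and 13.0 in R1, a ratio not tested. The 4 passenger arms among the members made up 2.46% and 2.53% of the reads of the 9 members in A129-17, 1.16% to 1.40% in line A129-6, 0.963% and 1.02% in line A129-2, 2.85% and 3.38% in R1 and 0.064% to 0.194% in RS. These shares leave out miR-92b-5p, so they are not the passenger share of the whole family. It had 1420 counts in A129-6 replicate 3, where the 4 arms had 1052, and 1759 in A129-17 replicate 1, where they had 2104.

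**Figure D5:**
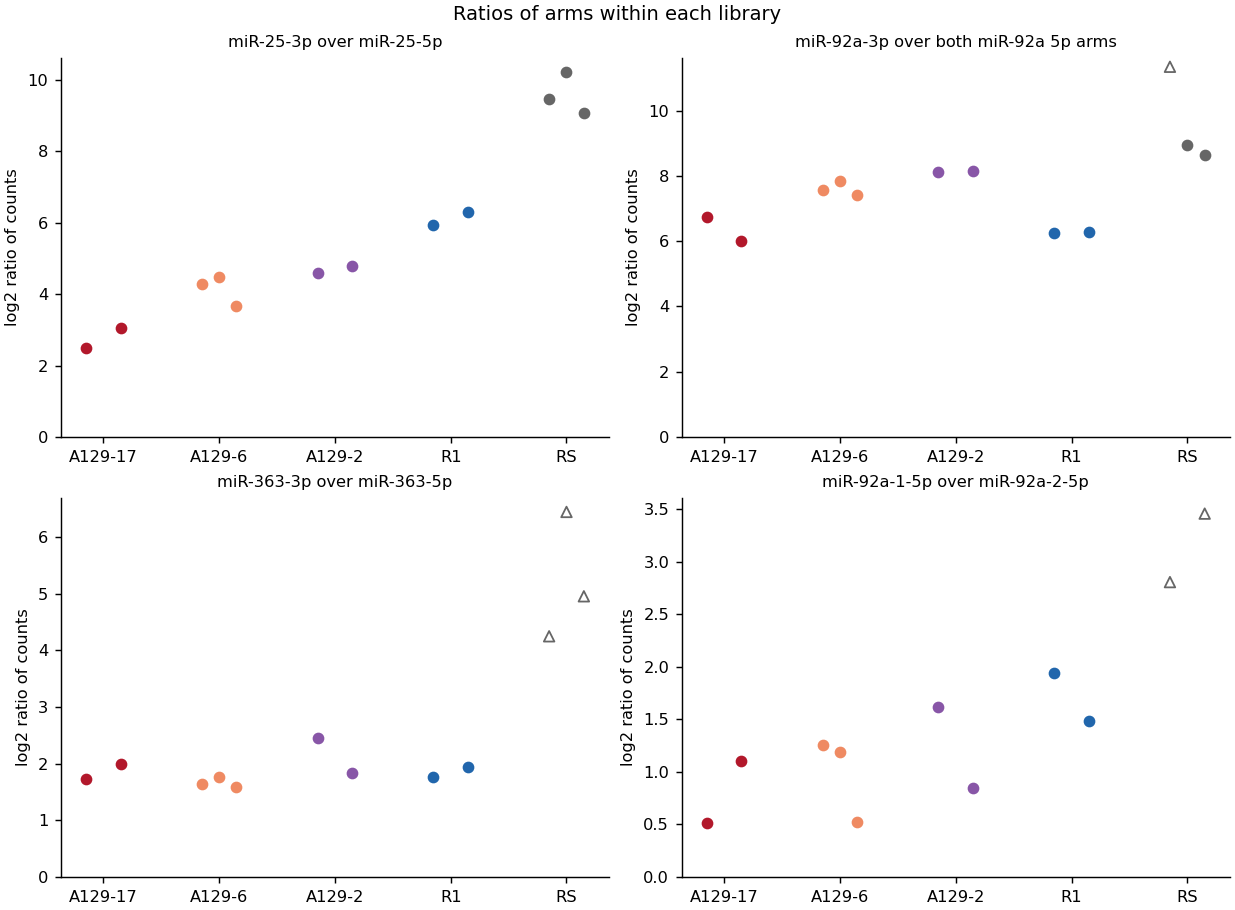
Log2 ratio of counts of 2 arms within each library (y axis, pseudocount 0.5) for miR-25, miR-92a, miR-363 and the miR-92a passenger arms, by group; open triangles mark libraries with no count of the arm below the line, and a library with no count of either arm is left out. The miR-25 ratio is lowest in A129-17 (5.59 and 8.31 on the linear scale), higher in R1 (61.4 and 78.8) and highest in RS.

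Most other miRNAs of the clusters fell against R1. Over all 757 features tested in this comparison, 35.3% were called lower and 35.3% higher. From the cluster of Mir92-1, 8 of 10 arms could be tested, of which 7 were lower, 1 was higher and the median log2 fold change was -3.62, against 0.33 over all features. miR-20a-5p averaged 189 normalised CPM in the haploid lines (SD 57.2 over the 3 line means) and 1990 ± 312 in R1 (SD, n = 2; log2 fold change -3.44, SE 0.30, adjusted p = 8.14e-08). miR-19b-3p, also made by the X-linked cluster, averaged 12.3 (SD 2.29) and 1269 ± 264 (-6.70, SE 0.41, adjusted p = 2.07e-09). These moved in the opposite direction to miR-92a-3p, to miR-92a-1-5p and to the called rise of the arm miR-18a-3p (1.00, SE 0.34, adjusted p = 0.0163), an arm named after its values were seen. GC content was 39.1% in both miR-20a-5p and miR-19b-3p, and after GC correction they were at -1.75 (adjusted p = 6.78e-05) and -4.98 (adjusted p = 2.80e-07). In that fit 6 of the 8 arms were lower and 0 higher, where 218 of all 609 features were called lower and 178 higher.

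From the X-linked cluster, which holds Mir92-2 and Mir363, 4 of 7 other arms could be tested, 3 lower and 1 higher with a median of -2.79. miR-18b-5p averaged 44.98 (SD 4.33) in the haploid lines and 574 ± 44.7 normalised CPM in R1, a log2 fold change of -3.68 (SE 0.23, adjusted p = 2.85e-09). miR-20b-5p was at -3.19 (SE 0.29, adjusted p = 1.29e-07). After GC correction these were -2.51 and -2.64 and both were still called. Both arms of miR-363 were likewise lower before GC correction, whereas after it miR-363-3p was at 0.013 and miR-363-5p, without a sequence, had no value. miR-92a-2-5p was higher in both fits.

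From the cluster of Mir25, all 4 other arms were tested, of which 3 were lower. miR-93-5p, its most abundant, averaged 2725 (SD 286) normalised CPM in the haploid lines and 5816 ± 534 in R1 (log2 fold change -1.10, SE 0.25, adjusted p = 0.000979), close to the change of -1.07 in miR-25-3p. In the fit of all 12 libraries it was at -0.23 (adjusted p = 0.642), as miR-25-3p was at -0.22. miR-106b-3p, with a GC content of 63.6%, was at 0.19 (SE 0.23, adjusted p = 0.477). It was lower after GC correction, at -1.41 (adjusted p = 4.21e-05), and higher in the fit of all 12 libraries, at 1.04 (adjusted p = 0.0150).

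Of the other arms and seed relatives, miR-92b-5p and miR-32-3p were described beside their partners. After GC correction miR-92b-5p was still higher (1.05, adjusted p = 0.0159), and miR-32-3p, at 28.6% GC, was no longer called (0.66, adjusted p = 0.123). miR-367-3p, which carries the family seed and belongs to the miR-302 cluster, was too low to test. It had 0 counts in both A129-17 libraries, 0, 0 and 3 in line A129-6 and 2 and 0 in line A129-2, against 10 and 9 in R1 and 0 in each RS library.

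The features whose log2 CPM followed those of the main guides most closely over the 9 ESC libraries, out of 451 with a mean of at least 10 CPM, were miR-673-5p (Pearson r = 0.992), miR-125a-3p (0.985) and miR-532-5p (0.983) for miR-92a-3p. For miR-25-3p they were miR-15b-3p (0.985), miR-194-5p (0.975) and miR-181c-3p (0.970), and for miR-363-3p miR-369-5p (0.969), miR-301a-5p (0.959) and miR-30b-3p (0.959). For the passenger arms, added after the values were seen, miR-25-5p was nearest to miR-149-5p (0.952) and miR-92a-1-5p to miR-92a-2-5p (0.909). These values describe libraries that fall into haploid and R1 groups and share the same scaling.

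In round spermatids the family was represented mainly by miR-25-3p and miR-92a-3p, and the 4 passenger arms among the members had at most 5 counts in a library. miR-92b-5p, which is not among the members, had 7, 7 and 8. Counts are given first since these libraries were shallow. RS replicates 1 to 3 held 1761, 1805 and 1353 counts of miR-25-3p, 1298, 1727 and 2179 of miR-92a-3p and 48, 25 and 47 of miR-92b-3p. miR-363-3p had 9, 43 and 15 and miR-32-5p 7, 6 and 3. Of the passengers, miR-25-5p had 2, 1 and 2 and miR-92a-1-5p 0, 3 and 5, while miR-92a-2-5p and miR-363-5p had none in any replicate. A count of 0 allows up to 12.3, 19.3 and 18.0 CPM in these libraries. At this depth low levels could not be told from absence: miR-92a-1-5p was at 19.3 and 30.0 CPM of all counts in RS replicates 2 and 3, where R1 had 28.3 and 28.1.

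Reads of miR-92a-3p per read of miR-25-3p were 8.77 and 8.82 in line A129-17, 6.89, 5.96 and 9.41 in line A129-6 and 5.57 and 5.84 in line A129-2, against 0.762 and 0.708 in R1 and 0.737, 0.957 and 1.61 in RS. Haploid libraries were apart from both R1 and RS, which overlapped. The ratio of miR-25-3p to miR-25-5p in RS was 880, 1805 and 676, on 2, 1 and 2 passenger counts, above every ESC library (haploid libraries against RS, log2 difference -5.69, exact permutation test, two-sided, p = 0.00833, adjusted 0.0333). The same p and adjusted p, the smallest that 7 against 3 libraries allow, were found for miR-92a (-2.24) and miR-363 (-3.36). Their sizes depend on the pseudocount because RS libraries had 0 passenger counts. Counting error also limits their separation from the haploid libraries, which the test does not take into account. For miR-363 the 95% upper limits of the passenger share of both arms were 33.6%, 8.22% and 21.8% in RS, against 15.4% in A129-2 replicate 1. For miR-92a they were 0.284%, 0.506% and 0.533% in RS, against 0.362% and 0.352% in A129-2. The ratio of miR-92b-3p to miR-92b-5p went the other way, being lower in RS than in ESC. It was 6.86, 3.57 and 5.88 in RS, on 7, 7 and 8 counts of the 5p arm. These values lay below every ESC library, and the ratio was not tested. The ratio of the miR-92a passengers gave -1.08 (exact permutation p = 0.133, adjusted 0.178) and cannot be read in RS, where replicate 1 had neither arm. R1 against RS, with 2 and 3 libraries, cannot pass the threshold by permutation, and the values stand side by side only.

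Fold changes against RS depended on how such different libraries were scaled, and are given for the fit of all 12 libraries. The mean of the haploid lines was higher than RS for 7 of the 9 members and lower for 1, where 65.4% of 806 features were called, 44.5% higher and 20.8% lower, and the median change of all features was 2.79. With scaling by total counts that median was 1.29 and the split of all called features 214 higher and 250 lower, against 359 and 168. After GC correction, the median was 0.45 and the split 130 and 227.

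miR-92b-3p had a log2 fold change of 5.12 (SE 0.42, adjusted p = 2.76e-10) and miR-25-5p of 5.41 (SE 0.48, adjusted p = 9.21e-10), both above the median change of all features. miR-92a-1-5p was at 3.49 (SE 0.58, adjusted p = 1.21e-05). miR-363-5p and miR-92a-2-5p were at least 31.6-fold and 16.0-fold higher, taking 3 counts over the RS group as the floor. With scaling by total counts these bounds were 9.46-fold and 4.79-fold, and the log2 fold changes of miR-92b-3p, miR-25-5p and miR-92a-1-5p were 3.42, 3.71 and 1.76, all still called. After GC correction miR-92a-1-5p was at 1.37 (adjusted p = 0.0503). Without RS replicate 1 it was at 2.79 and without RS replicate 3 at 4.25. miR-92a-3p, at 2.06 (SE 0.41, adjusted p = 0.000114), and miR-363-3p, at 2.31 (SE 0.42, adjusted p = 3.71e-05), changed by less than the median of all features and were not called with scaling by total counts (0.30, adjusted p = 0.521, and 0.48, adjusted p = 0.390). The change of miR-363-3p was 3.38 without RS replicate 2 and 1.70 without A129-17 replicate 2.

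miR-32-5p was lower in the haploid lines than in RS (-3.61, SE 0.68, adjusted p = 6.06e-05), though RS had 16 counts of it in all and the change was -4.99 without A129-2 replicate 2 and -4.32 without A129-17 replicate 2. miR-25-3p was at -0.65 (SE 0.30, adjusted p = 0.0634), and was called lower with scaling by total counts (-2.38, adjusted p = 4.42e-06). GC correction turned miR-92a-3p round to -2.01 (adjusted p = 7.44e-06) and left miR-92b-3p at -0.18 (adjusted p = 0.665) and miR-25-5p at 0.94 (adjusted p = 0.165). In bulk samples such as these, fewer cells of a type and less RNA per cell cannot be told apart, and the part that the mesenchymal and blood miRNAs listed above play in the RS values was not tested.

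R1 against RS had 7 members called higher and 0 lower (53% of features called, 33.6% higher and 19.4% lower, with a median of 2.04). It shares the RS libraries with the comparison above. miR-25-5p was at 3.37 (SE 0.54, adjusted p = 1.01e-05), miR-363-3p at 2.93 (SE 0.48, adjusted p = 1.52e-05), miR-32-5p at 2.28 (SE 0.64, adjusted p = 0.00375), miR-92a-1-5p at 1.70 (SE 0.66, adjusted p = 0.0353) and miR-92b-3p at 1.43 (SE 0.41, adjusted p = 0.00480). miR-363-5p was at least 48.0-fold higher and miR-92a-2-5p at least 2.76-fold, or 28.9-fold and 1.66-fold with scaling by total counts. Leaving out 1 library, haploid ones included, moved these log2 changes by amounts that are over 1.5-fold on the linear scale. That of miR-363-3p ran between 2.48 and 4.86 (without RS replicate 2), of miR-25-5p between 3.37 and 4.38 (without RS replicate 3), of miR-32-5p between 2.28 and 3.46 (without RS replicate 2) and of miR-92b-3p between 1.43 and 2.42 (without RS replicate 3), each still called. That of miR-92a-1-5p ran between 1.01 (without RS replicate 1, adjusted p = 0.176) and 3.31 (without RS replicate 3). miR-25-3p, at -0.43 (SE 0.41, adjusted p = 0.402), and miR-92a-3p, at -1.005 (SE 0.495, adjusted p = 0.0942), were not called, and with DESeq2 miR-92a-3p was called lower (-0.87, adjusted p = 0.0220). After GC correction miR-92b-3p was lower in R1 (-1.47, adjusted p = 0.00385), as were miR-92a-3p (-3.25, adjusted p = 6.43e-06) and miR-25-3p (-2.55, adjusted p = 1.38e-05). miR-25-5p (0.98, adjusted p = 0.177), miR-32-5p (0.89, adjusted p = 0.245) and miR-92a-1-5p (-0.30, adjusted p = 0.781) were then not called, and miR-363-3p was (1.45, adjusted p = 0.00938). Nor was miR-92a-2-5p, which had no count in RS, called after GC correction (adjusted p = 0.111). With scaling by total counts, miR-32-5p, miR-92a-1-5p and miR-92b-3p were not called (adjusted p = 0.0717, 0.360 and 0.239), and miR-92a-3p was called lower (-1.80, adjusted p = 0.00951).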

How the data were processed

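Small RNA libraries of 12 samples in 5 groups were made by ligation of adapters to both RNA ends, PCR and gel selection, and sequenced as single-end reads, per the labels' protocols. The authors deposited raw read counts per miRNA, which they had not normalised. The submitters' processing notes name Bowtie 0.12.9 and DESeq2. Their build, miRNA release, rule for reads with several matches and source of the 183 predicted names are not given in the sources used here. Each of the 12 columns matched a sample by its name.

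The members, lists, tests and naming rule (all members, the 2 highest arms of each list, the 3 nearest features to each of 3 guides) were chosen with earlier results of these data known. The quasi-likelihood F-test of edgeR 4.0.16 (limma 3.58.1, R 4.3.3) was run on TMM-scaled libraries after filterByExpr (at least 10 counts, at least 15 in total), p-values being adjusted by Benjamini-Hochberg over all features and called below 0.05. Comparisons among ESC used a fit of their 9 libraries, those with RS a fit of all 12, and the haploid lines had equal weight in these fits. Scripts were tested on simulated data. Arm ratios used log2 counts with a pseudocount of 0.5 and exact permutation of libraries. Against R1 and RS each haploid library had equal weight there, so A129-6, with 3 libraries, weighed more than the other lines. SE was computed from the log2 fold change and F. Alternatives were RLE, upper-quartile and total-count scaling, scaling without the miR-290 cluster, no filter or a stricter one (10 CPM), DESeq2 1.42.0, all 12 libraries in the fit, GC correction by lowess, sums per line, a replicate block, a pseudocount of 1 and leaving out each library. GC content was known for 609 of 757 features among ESC and 651 of 806 in the full fit. Intervals (95%) and floors (3 counts) cover counting error only, since reads had no molecular identifiers. Positions are 1-based on GRCm38.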

Additional observations from a re-analysis of the deposited data

Results flagged for a closer look

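The change against R1 differed between the 3 haploid lines for miR-25-5p (edgeR quasi-likelihood F-test with Benjamini-Hochberg adjustment, adjusted p = 0.0394), miR-92a-1-5p (0.0394) and miR-92a-2-5p (0.0394). Against R1, miR-25-5p had a log2 fold change of 2.07 in A129-17, 0.74 in A129-6 and 0.73 in A129-2, miR-92a-1-5p of 2.05 (1.21 without A129-17 replicate 2), 0.51 and 0.26, and miR-92a-2-5p of 2.84, 1.25 and 0.75. Both A129-17 libraries were above all 5 libraries of the other lines for each arm. The guide arms of the same hairpins had adjusted p-values of 0.344 (miR-25-3p) and 0.748 (miR-92a-3p) in the same test, and whether guide and passenger differ from each other between lines was tested by the arm ratios.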

How the results depend on the processing

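Of the members' changes against R1 in the lines' mean, those of miR-92a-3p, miR-92b-3p, miR-92a-2-5p and miR-32-5p kept direction and call under all alternatives run. Line by line, miR-92a-2-5p did not. In A129-6 it lost its call under 5 alternatives, with log2 fold changes of 0.368 to 2.10. In A129-2, where it was not called at first, it ran between 0.037 and 1.58. After GC correction miR-25-5p (-0.093, adjusted p = 0.738) and miR-363-3p (0.013, adjusted p = 0.968) were no longer called in the lines' mean. In single lines, miR-25-5p was then at -0.42 in A129-6 and -0.51 in A129-2, and miR-363-3p at 0.50 in A129-17. None of these was called (adjusted p = 0.166, 0.136 and 0.106). The correction left 2 members lower in the lines' mean, A129-17 and A129-6 and 1 in A129-2. With all 12 libraries in the fit, 1 member was lower in the lines' mean and for A129-17 and A129-6, with 2 in A129-2, where 4 were higher and miR-25-3p was at 0.11, and the split of all features was 342 higher and 176 lower against 267 and 267. Scaling by total counts left 2 members higher in A129-6. Leaving out 1 library gave 3 to 5 higher in the lines' mean and 2 to 4 in A129-6. Over all features, GC correction had 218 of 609 called lower in the lines' mean, 191 in A129-17, 194 in A129-6 and 166 in A129-2. Without it, of 757 features, these were 267, 239, 243 and 218. The fit of all 12 libraries had 153 lower in A129-17, 163 in A129-6 and 141 in A129-2. Scaling by total counts had 226 features higher in A129-6, against 265. The cause of these changes was not tested.

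Against RS, members lower in the haploid lines numbered 2 under RLE, upper-quartile and total-count scaling, the stricter filter, DESeq2 and the replicate block. They numbered 1 to 2 when leaving out a library and 3 (with 2 higher) after GC correction. That correction put miR-92a-3p at -2.01 and miR-92b-3p, which was then not called, at -0.18. R1 against RS had 4 higher and 1 lower by total counts, 4 and 2 by upper-quartile scaling and 1 lower with DESeq2. It had 0 to 1 lower when leaving out a library, and 1 higher and 3 lower after GC correction. That correction put miR-92b-3p, called lower, at -1.47 and miR-92a-1-5p, not called, at -0.30. For R1 against RS, miR-25-3p was at 0.35 without the miR-290 cluster in the scaling, at 0.33 without a filter and at -0.50 to 0.69 when leaving out a library. Over all 806 features, R1 against RS had 271 called higher and 156 lower before any alternative. They were 214 and 186 by total counts and 204 and 207 by upper-quartile scaling. DESeq2 gave 275 and 152, and GC correction 134 and 208 of 651. The haploid lines against RS had 359 features called higher and 168 lower before any alternative, and 321 and 192 with RLE scaling. Upper-quartile scaling gave 239 and 253, total counts 214 and 250 and the stricter filter 279 and 185 of 579. DESeq2 gave 311 and 196, the replicate block 352 and 166 and GC correction 130 and 227. The median change of all features against RS ran between 0.45 (GC correction) and 3.49 (without RS replicate 2) for the haploid lines and between 0.73 (GC correction) and 3.18 (without RS replicate 2) for R1.

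Between the 3 lines, members and features called numbered 0 and 2 with all 12 libraries, 1 and 3 with the stricter filter and 0 and 0 by total counts. Features numbered 85 with DESeq2 and 82 without a filter, and leaving out a library gave 0 to 3 members and 0 to 80 features. A129-17 against A129-2 gave 3 members and 13 features with RLE, GC correction or without miR-290, 2 and 5 with upper-quartile scaling, 3 and 60 without a filter, 3 and 62 with DESeq2, and 0 to 3 and 0 to 70 when leaving out a library, the most without A129-6 replicate 3. A129-17 against A129-6 gave 3 and 18 without a filter, 3 and 23 with DESeq2, and 0 to 3 and 0 to 40 when leaving out a library. A129-6 against A129-2 gave 1 and 41 without a filter and with DESeq2, and 8 features with all 12 libraries, 2 by total counts, 1 with the stricter filter and 0 to 32 when leaving out a library.

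Leaving out a library moved the log2 arm ratio between lines to 1.63 to 2.20 for miR-25 and 1.38 to 2.12 for miR-92a. That between haploid lines and RS moved to -5.95 to -5.37 for miR-25, -2.74 to -1.38 for miR-92a and -3.84 to -2.75 for miR-363. The comparisons with RS missed the threshold where an RS library was left out. This leaves 7 against 2 libraries, for which the smallest p of the exact permutation test is 0.0278 before adjustment. The log2 arm ratio of miR-363 against R1 moved to -0.090 to 0.098. With means per line the miR-92a ratio against R1 was 1.11.

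No label says that libraries of the same replicate number belong together. Among ESC, deviations of same-numbered libraries from their group means correlated at -0.373 to 0.245. With 2 or 3 libraries in a group, these values cannot show whether such libraries shared a batch. With the replicate block, features called between the 3 lines numbered 72, A129-17 against A129-2 gave 3 members and 70 features and against A129-6 2 and 34, and 2 members were lower in the haploid lines than in RS. The replicate block with GC correction gave miR-25-5p -0.10 (A129-6 -0.45, A129-2 -0.51), miR-363-3p 0.0074 (A129-17 0.50), miR-92a-3p -1.92 and miR-92b-3p -0.13 against RS, and miR-92a-1-5p -0.11 and miR-92b-3p -1.40 for R1 against RS. It left 2 members lower in the lines' mean, A129-17 and A129-6, 1 in A129-2 and 2 higher in A129-6, with 3 higher, 3 lower and 347 features against RS, 1 higher and 3 lower for R1 against RS, 66 features between the lines, and 3 and 63 for A129-17 against A129-2 and 1 and 12 against A129-6. Over all 609 features, this setting had 221 lower in the lines' mean, 199 in A129-17, 186 in A129-6 and 178 in A129-2. In A129-6 it had 169 higher. Against RS it had 133 higher and 214 lower in the haploid lines, and 124 and 196 in R1. Depth limits all values of RS passenger arms and of miR-32-5p.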
